A study of Malus domestica with 12 samples.

Results

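Apple chaperones of the HSP60 and HSP70 families were followed in the peel of "Granny Smith" fruit collected at early harvest, before any cold storage. The members are the 9 transcripts that the study listed under these families as down regulated in high scald fruit, 2 of HSP60 and 7 of HSP70. They were found among the 133709 probes of the array by the sequence identifier of their probe, 1 sense probe each, and are 9 of the 66665 sense probes of gene models. The transcripts had been selected on the high scald over low scald ratio of these same samples. That ratio is therefore given here as a description of the 9 members, without a test.

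Superficial scald is a browning of the skin that appears after cold storage, and low and high scald name the later incidence in the batch from which peel was taken. Low scald was represented by 2014-P24 and 2014-P36, harvested in 2014 on plots 24 and 36. High scald was represented by 2015-P24 and 2015-P31, harvested in 2015 on plots 24 and 31, and 2017-P31b, harvested in 2017 on plot 31b. Each sample was 1 pool of peel from the sun-exposed and the shaded side of 20 fruit, untreated. Comparison C1 paired 2015-P24 with 2014-P24, C2 paired 2015-P31 with 2014-P36, and C3 paired 2017-P31b with the same 2014-P24. Each comparison was hybridised on 2 Agilent 2-colour arrays with the dyes swapped, which gave 6 arrays and 12 channels. Every low scald sample came from 2014 and every high scald sample from a later year, so scald class and harvest year cannot be told apart. The arrays of C2 lay on a slide of their own, so slide and C2 cannot be told apart either. The dye-swapped arrays hold the same RNA, and the spread that counts is the one over the 3 comparisons, of which C1 and C3 share 2014-P24.

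HSP70 proteins bind short exposed stretches of unfolded proteins and release them in cycles driven by ATP, with DnaJ (HSP40) proteins that load the client and nucleotide exchange factors that reset the cycle. HSP60 chaperonins are barrels in mitochondria and chloroplasts that enclose a client while it folds, with a small chaperonin as the lid. In plants, many genes of both families are transcribed more strongly after heat, under control of heat shock transcription factors. Some HSP70 genes, called cognates, are also expressed without stress.

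All 9 transcripts gave a lower signal in high scald peel, on each of the 6 arrays. The mean log2 ratio ran from -2.88 for MD15G1150500, annotated as HSP70B, to -1.18 for the HSP60 gene MD05G1182500, and the median of the 9 members was -2.0, against -0.0002 over all probes. By family, the median was -2.04 for the 7 HSP70 and -1.32 for the 2 HSP60 transcripts. The HSP70 median is the value of MD17G1226000, none of whose high scald channels was well above background. A log2 ratio of -1 stands for a signal lower by 1 doubling in high scald peel. The 9 members were negative on 6 of 6 arrays with a mean of -1 or less, a rule that 0.167% of all probes met and 1.12% of the probes above background in all 6 low scald channels. Nothing is read from this count, since the members were chosen by it. No member was called in the fit across all probes (limma on the 3 ratios, adjusted p of 0.05 or below). This fit called 1 probe or 0.000748% of all probes and had 7098 probes at an unadjusted p under 0.05. The study's own fit, which also combined the 3 comparisons, called all 9 members and far more transcripts at an adjusted p of 0.05. The reason for this difference was not tested.

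**Figure D1:**
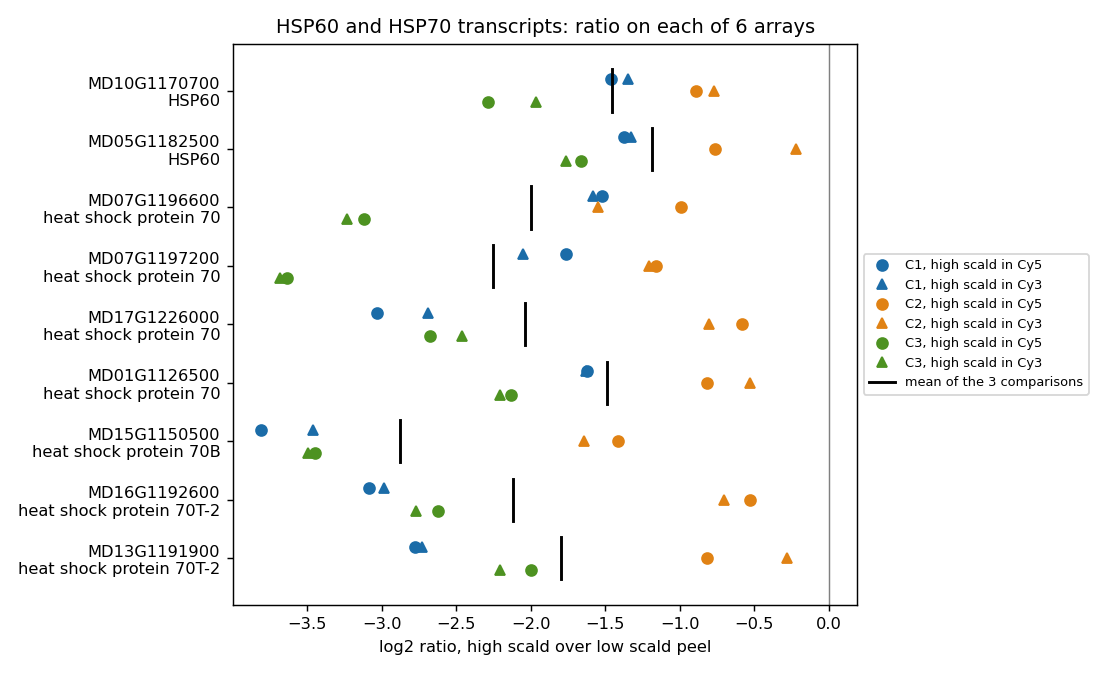
The log2 ratio of high scald over low scald peel (horizontal axis) is plotted for the 9 transcripts on each of 6 arrays, with the comparisons in colour, the dye orientation as circle or triangle, and the mean of the 3 comparisons as a black bar. All points lie below 0, from -3.81 to -0.22. The C2 arrays lie nearest to 0 in 8 of the 9 transcripts, and C3 lies farthest from 0 in 5 of them, with the widest gap to C1 in the 2 genes of chromosome 7.

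The levels below are log2 signals of single channels, averaged per peel sample. A signal depends on how each probe binds as well as on the transcript, so levels are compared between samples for 1 gene and never between genes. The number in an MD gene name after the letters is the chromosome of the GDDH13 apple genome, to which the study matched the probes. Probes of related HSP70 genes could bind each other's transcripts, which was not tested. In whole peel, fewer cells of a type and less RNA per cell cannot be told apart.

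The strongest ratio belonged to MD15G1150500 on chromosome 15, which the study matched to Arabidopsis HSP70B, a cytosolic HSP70 known there for its strong induction by heat. Its level was 10.49 in 2014-P24, 8.70 in 2014-P36, 6.92 in 2015-P24, 7.17 in 2015-P31 and 6.95 in 2017-P31b. The 3 high scald samples lay close together, and the low scald samples differed from each other by more than the high scald samples did. C1, C2 and C3 gave log2 ratios of -3.64, -1.53 and -3.47, with a mean of -2.88 ± 1.17 (SD, n = 3 comparisons), or a 7.35-fold lower signal. Its probe was well above background (over 2.6 times the SD of the local background pixels above their median) in 6 of 6 low scald and 5 of 6 high scald channels.

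The 2 HSP70T-2 genes encode a shortened HSP70 and lie on chromosomes 16 and 13, a pair of chromosomes that descend from the genome duplication in the history of apple. The level of MD16G1192600 was 10.22 in 2014-P24 and 8.0 in 2014-P36, then 7.22 in 2015-P24, 7.38 in 2015-P31 and 7.50 in 2017-P31b. The level of MD13G1191900 was 10.60 in 2014-P24 and 8.39 in 2014-P36, then 7.84 in 2015-P24, 7.84 in 2015-P31 and 8.51 in 2017-P31b. In both genes 2014-P24 stood above every other sample, and in MD13G1191900 the high scald sample 2017-P31b lay above the low scald sample 2014-P36. MD13G1191900 was the 1 member whose low and high scald samples overlapped on this scale. Its ratios, taken within each array, were still negative in all comparisons, at -2.75, -0.55 and -2.10 in C1 to C3 (mean -1.80 ± 1.13, SD, n = 3). The ratios of MD16G1192600 were -3.04, -0.62 and -2.70 in the same order (mean -2.12 ± 1.31, SD, n = 3).

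Over the 5 peel samples, every high scald sample lay below every low scald sample in 8 of the 9 members, and this held for 5.45% of all probes. The rule that chose the members used this contrast, so the count is a description.

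Of the 4 genes annotated simply as HSP70, MD17G1226000 is matched to the same Arabidopsis HSP70 as MD07G1197200 and MD01G1126500, a cytosolic form that responds to heat there. It gave the dimmest signal relative to background among the members: 5 of 6 low scald channels and 0 of 6 high scald channels were well above background. Its measured level was 8.52 in 2014-P24 and 6.84 in 2014-P36, then 5.66 in 2015-P24, 6.15 in 2015-P31 and 5.95 in 2017-P31b. The high scald values are therefore not measured levels. With each high scald channel held at no less than the lowest signal of any probe above background, its signal in high scald peel was 3.22-fold lower. That floor is no detection limit: in 2015-P31 on array 1 of C2, MD13G1191900 was not above background at 7.93. A low scald channel of MD17G1226000 itself, at 6.75 in 2014-P36, was not above background either. The 3.22-fold is thus not a strict bound. The array ratios averaged -2.86, -0.69 and -2.57 in C1 to C3.

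MD07G1196600 and MD07G1197200 carry neighbouring numbers on chromosome 7, and the study matched the first to an Arabidopsis HSP70 of a different name from the second. The level of MD07G1196600 was 13.22 in 2014-P24 and 13.06 in 2014-P36, then 11.86 in 2015-P24, 11.79 in 2015-P31 and 9.85 in 2017-P31b. The level of MD07G1197200 was 11.21 in 2014-P24 and 10.76 in 2014-P36, then 9.29 in 2015-P24, 9.57 in 2015-P31 and 7.57 in 2017-P31b. Both genes were thus highest in the 2 low scald samples, lower in both samples of 2015, and lowest in 2017-P31b. Their ratios were most negative in C3, at -3.18 and -3.66, against -1.55 and -1.91 in C1 and -1.27 and -1.18 in C2. The means were -2.0 ± 1.03 and -2.25 ± 1.27 (SD, n = 3). All 12 channels of both probes were well above background, and none was saturated.

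MD01G1126500 on chromosome 1 was at 8.40 in 2014-P24 and 7.89 in 2014-P36, then at 6.76 in 2015-P24, 7.22 in 2015-P31 and 6.24 in 2017-P31b. As in the chromosome 7 genes, both low scald samples lay above both samples of 2015, and 2017-P31b was lowest. Its ratios in C1 to C3 were -1.63, -0.67 and -2.17 (mean -1.49 ± 0.76, SD, n = 3). Only 3 of its 6 high scald channels were well above background, and neither channel of 2017-P31b was.

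**Figure D2:**
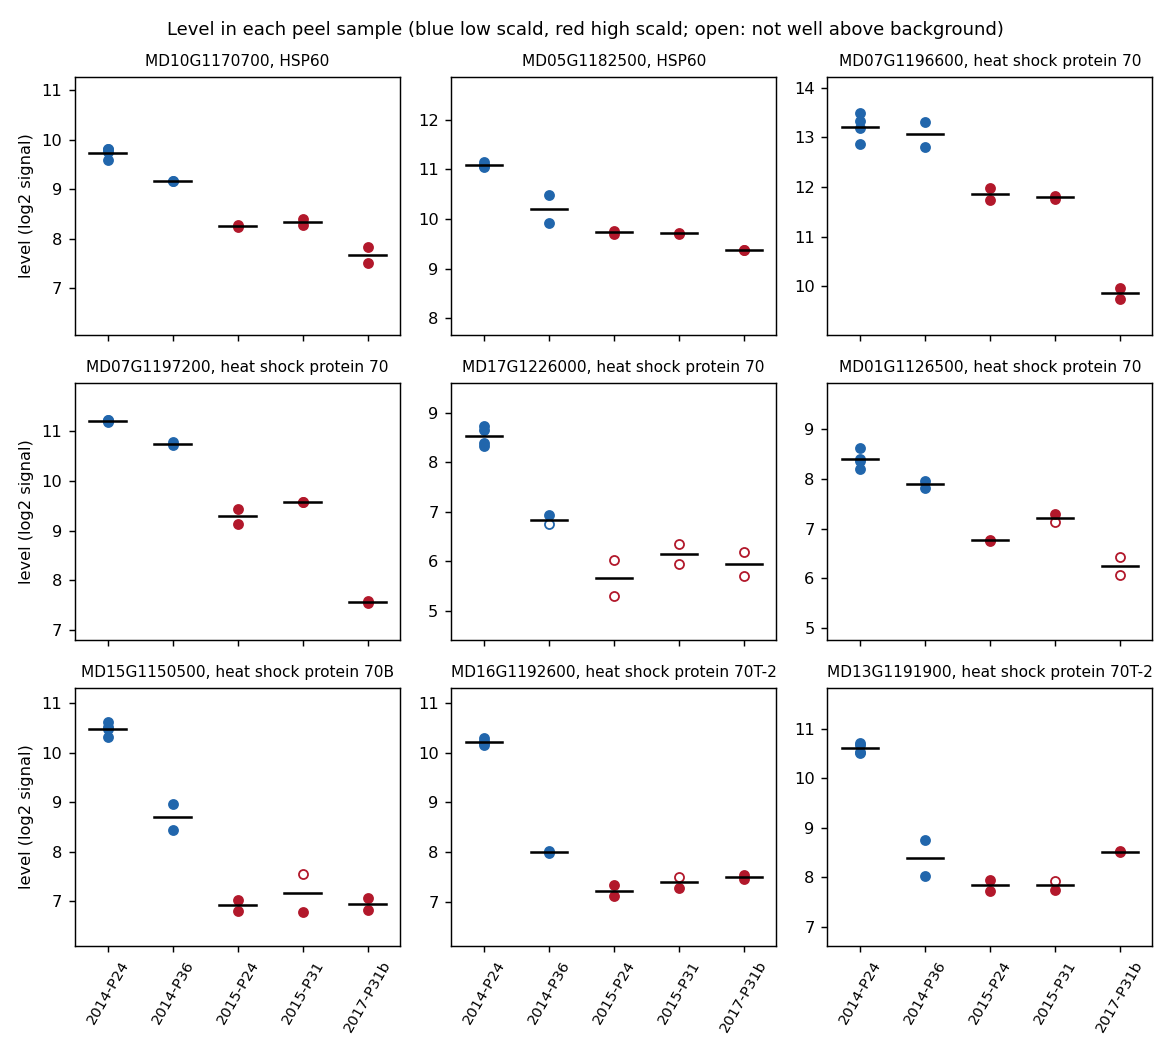
The log2 level in each of the 5 peel samples is plotted for the 9 transcripts, with 1 point per channel (4 for 2014-P24, 2 for the others), a bar at the sample's mean, and open points for channels not well above background. All panels span the same number of log2 units. The HSP70B, HSP70T-2 and MD17G1226000 panels have 2014-P24 alone at the top, and the chromosome 7 panels have 2017-P31b alone at the bottom.

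The 2 HSP60 genes code for the mitochondrial chaperonin and lie on chromosomes 10 and 5, another pair left by the genome duplication. The level of MD10G1170700 was 9.74 in 2014-P24 and 9.16 in 2014-P36, then 8.26 in 2015-P24, 8.33 in 2015-P31 and 7.68 in 2017-P31b. The level of MD05G1182500 was 11.09 in 2014-P24 and 10.20 in 2014-P36, then 9.73 in 2015-P24, 9.71 in 2015-P31 and 9.38 in 2017-P31b. The order of the sample means differed between the genes only in the samples of 2015, which lay within 0.07 of each other in both. The ratios in C1 to C3 were -1.41, -0.83 and -2.13 for MD10G1170700 (mean -1.45 ± 0.65, SD, n = 3). They were -1.35, -0.49 and -1.71 for MD05G1182500 (mean -1.18 ± 0.63, SD, n = 3). The arrays of C2 differed by 0.54 in MD05G1182500, at -0.76 and -0.22, so its C2 ratio is known less well than its ratios in C1 and C3, whose arrays differed by 0.04 and 0.10.

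MD10G1170700 was also the match of a second probe, of the sequence MDP0000235765, which the study did not put on this list. C1, C2 and C3 gave -1.25, -0.29 and -1.48 for this probe, with a mean of -1.004 (limma adjusted p = 0.877 over all probes). It was negative on 5 of 6 arrays, with 0.02 on 1 array of C2, and was well above background in 5 low scald and 3 high scald channels. Both probes of the gene thus had their smallest ratio in C2 and their largest in C3.

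The comparisons were not alike in size. The median ratio of the 9 members was -0.69 in C2, against -1.91 in C1 and -2.57 in C3. Over all probes the median was 0.0007, 0.0018 and -0.0012 in C1 to C3. The members' C2 and C3 medians are both values of MD17G1226000, none of whose high scald channels was well above background. Over the 9 members, the ratio ran from -3.64 to -1.35 in C1, -1.53 to -0.49 in C2 and -3.66 to -1.71 in C3. Both arrays of C2 lay above all 4 arrays of C1 and C3 in 8 of the 9 members, as they did in 7.95% of all probes. The same held in 31 of the 34 other heat shock proteins and chaperones on the study's list, so it is not particular to the members. The exception among the members was MD07G1196600, whose C2 arrays gave -0.99 and -1.55 and whose C1 arrays gave -1.52 and -1.58. Over the members, the ratio on one array differed from that on its dye swap by a median of 0.10, 0.23 and 0.11 in C1 to C3, and by at most 0.56. In MD15G1150500, MD16G1192600, MD13G1191900 and MD01G1126500, the channel of 2015-P31 on array 1 of C2 was not well above background, at 7.14 to 7.93. The channel of the same sample on array 2 was, at 6.79 to 7.75. The part of this channel in the C2 ratios was not tested.

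The low scald samples differed from each other by more in some genes than in others. In MD15G1150500, MD16G1192600, MD13G1191900 and MD17G1226000, the low scald sample of C2, 2014-P36, differed from 2014-P24 by -2.22 to -1.68. Its channels lay below all 4 channels of 2014-P24 and the gap was 1 or more in these 4 of the 9 members, as in 0.341% of all probes and 1.38% of the probes above background in all low scald channels. In the chromosome 7 genes the same gap was -0.16 for MD07G1196600 and -0.46 for MD07G1197200, and in the HSP60 genes and MD01G1126500 it ran from -0.89 to -0.51. The high scald samples of the same year, 2015-P31 and 2015-P24, differed by -0.07 to 0.49 in all 9 members. Each of these samples is 1 pool, and 2014-P36 and 2015-P31 share the slide of C2, and this gap was set out after the data had been seen, so it is given without a test.

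The high scald samples 2017-P31b and 2015-P24 differed in other genes. They come from different plots as well as different years, so year and plot cannot be told apart here. C1 and C3 share 2014-P24 and a slide, so the difference of their ratios sets 2017-P31b against 2015-P24. This difference was -1.63 in MD07G1196600 and -1.75 in MD07G1197200, a 3.09-fold and a 3.37-fold lower signal in 2017-P31b. In both genes the 2 arrays of C3 lay below both arrays of C1 and the gap was 1 or more, which 0.242% of all probes and 1.32% of the probes above background in all low scald channels also met. No member lay higher in 2017-P31b by the same rule, against 0.313% of all probes. The difference was -0.72 in MD10G1170700 and -0.36 in MD05G1182500. It was 0.65 in MD13G1191900, 0.34 in MD16G1192600 and 0.16 in MD15G1150500, but the last of these was negative in 4 of 14 alternatives, and that of MD16G1192600 was -0.20 with median centring in place of loess. In MD01G1126500 the measured difference was -0.54, and -1.85 with plain background subtraction, with 2017-P31b not above background. In MD17G1226000 neither sample was above background, so its measured 0.29 gives no direction. With 1 pool on each side, no test of this difference was made.

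**Figure D3:**
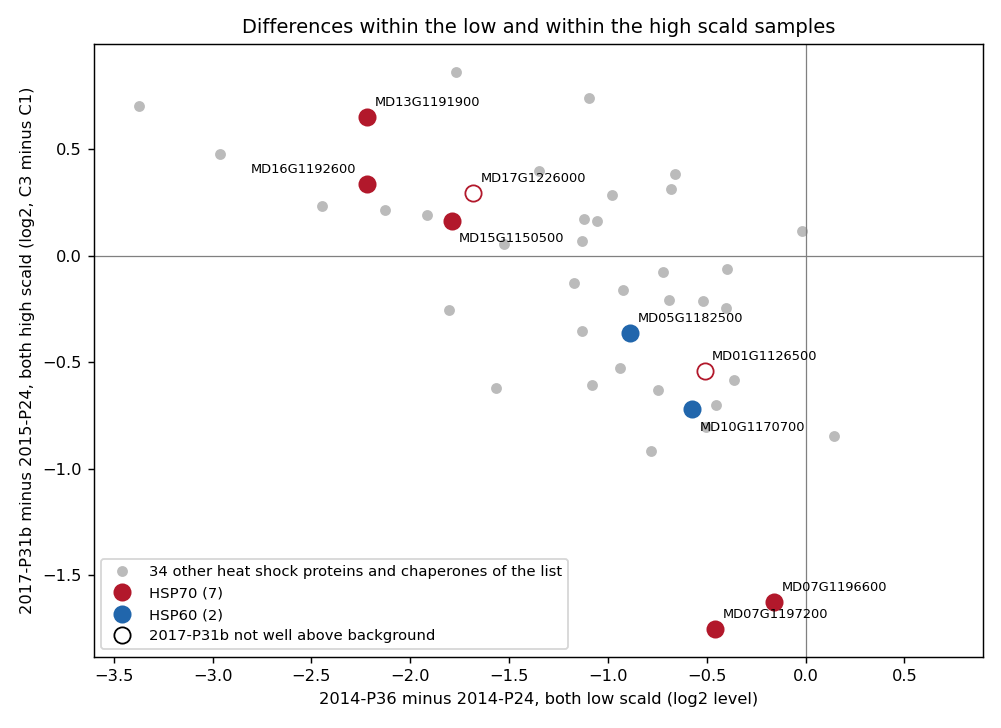
Each point is a transcript, with the log2 level difference between the low scald samples (2014-P36 minus 2014-P24) on the horizontal axis and the log2 difference between the high scald samples 2017-P31b and 2015-P24 (C3 minus C1) on the vertical axis. The 2 HSP70 genes of chromosome 7 lie lowest, at -1.63 and -1.75, with a small horizontal difference, and the 4 labelled genes at the upper left have a horizontal difference of -2.22 to -1.68. Open points are members without a channel of 2017-P31b above background (MD17G1226000 and MD01G1126500), whose vertical position is not a measured difference. Grey points are the 34 other heat shock proteins and chaperones on the study's list.

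The 34 other heat shock proteins and chaperones on the same list had a median ratio of -2.53, and their medians in C1 to C3 were -2.88, -1.38 and -3.07. Their difference between 2017-P31b and 2015-P24 ran from -0.92 to 0.86, and 0 of the 34 met the rule that the chromosome 7 HSP70 genes met. The gap between 2014-P36 and 2014-P24 counted in 16 of the 34. These transcripts were chosen by the same contrast as the members, so the medians only place the members among them.

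Each member was also set against the sense probes above background in all low scald channels, and the 3 with the smallest root mean square difference over the 6 array ratios were noted. No high scald channel of MD17G1226000 was well above background, so its distances depend on how background was treated. With plain background subtraction its mean ratio went from -2.04 to -4.84, and that of MD16G1192600 from -2.12 to -2.55. Nearest to MD17G1226000 was MD16G1192600, at 0.18. It was followed, at 0.21 and 0.22, by a pair of probes (MDP0000223568 and MDP0000158520) annotated as the small heat shock protein HSP18.2 but from models oriented antisense to it, so they need not report its transcript. The same pair was among the nearest to MD16G1192600, at 0.22 and 0.25, beside an uncharacterised protein at 0.25. The pair was also among the nearest to MD13G1191900, at 0.24 and 0.20, after a class I small heat shock protein at 0.19. MD15G1150500 was nearest to a RING finger protein at 0.29 and an uncharacterised protein at 0.30, then to a class II small heat shock protein at 0.33. The chromosome 7 genes were 0.39 from each other, and a PPPDE peptidase family protein was near both, at 0.45 from MD07G1196600 and 0.43 from MD07G1197200. Nearest to MD07G1197200 was a tau-class glutathione transferase, an enzyme that joins glutathione to other molecules, at 0.38, and MD07G1196600 had a MYB111-like transcription factor as the third nearest, at 0.48. MD01G1126500 was nearest to a cinnamoyl-CoA reductase-related sequence at 0.15 and then to tau-class glutathione transferases at 0.17 and 0.18. The HSP60 gene MD10G1170700 had a tau-class glutathione transferase and MDP0000205111, not named here, both at 0.11, and multiprotein bridging factor 1C, a transcription coactivator known from heat responses in Arabidopsis, at 0.19. The HSP60 gene MD05G1182500 had an uncharacterised protein and a SNARE-like protein, both at 0.17, and a haem-binding protein at 0.18. These distances describe 6 arrays of 5 pools. For the 36 pairs of members the distance ran from 0.18 to 1.79 with a median of 0.91. It was 0.36 for the HSP60 pair and 0.44 for the HSP70T-2 pair. The smallest was that of MD17G1226000 and MD16G1192600, with the limit given above.

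Antisense probes of the same 9 sequences had not been used to choose the members, and they were tested in the fit across all probes. None of the 9 was called (limma, adjusted p from 0.762 to 0.995). An unadjusted limma p under 0.05 was found for 7098 of all 133709 probes and for 2 of these 9. Those 2, antisense to MD07G1197200 and MD01G1126500, were above background in no channel, so nothing is read from this count. Most of the 9 antisense probes carried no measurable signal: 7 were above background in none of the 12 channels, and the probe antisense to MD07G1196600 in 1. The exception was the antisense probe of MD15G1150500, the HSP70B gene, which was above background in all 12 channels. Its level was 7.26 in 2014-P24, 8.71 in 2014-P36, 7.00 in 2015-P24, 8.51 in 2015-P31 and 7.54 in 2017-P31b. It was higher in both samples of C2, low and high scald alike, than in the other 3, which lay on the other slide. Its ratios in C1 to C3 were -0.40, -0.20 and 0.41, with a mean of -0.07 ± 0.42 (SD, n = 3, limma adjusted p = 0.991), against -2.88 for the sense probe.

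**Figure D4:**
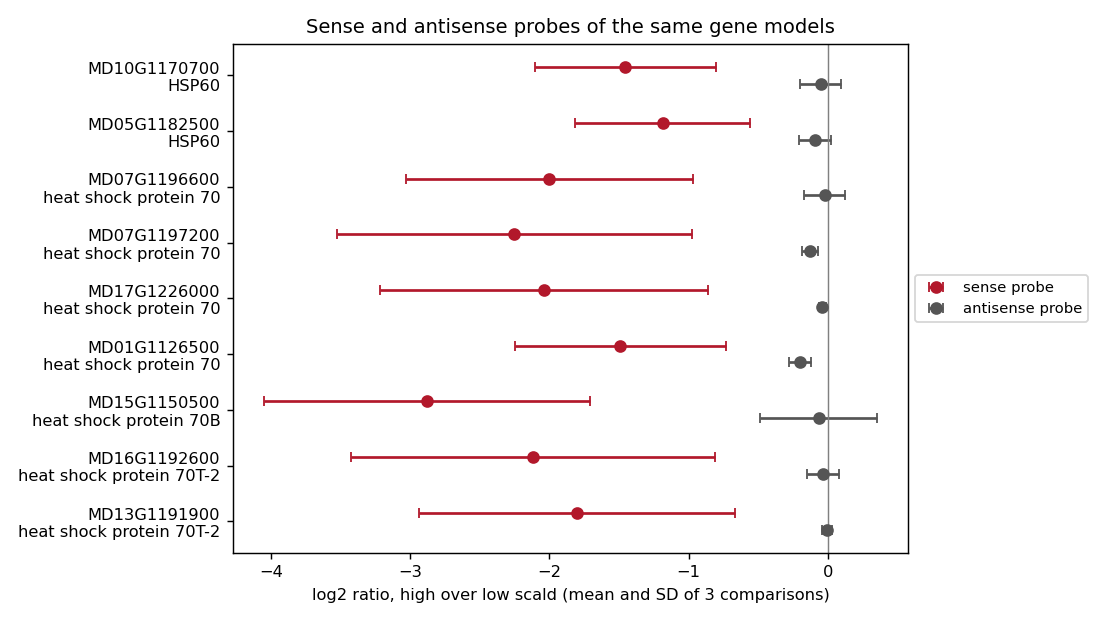
The mean log2 ratio of high over low scald (horizontal axis) is plotted with its SD over 3 comparisons for the sense probe (red) and the antisense probe (grey) of each gene model. The sense means run from -2.88 to -1.18, and the antisense means from -0.20 to -0.01. Only the antisense probe of MD15G1150500 was above background in all 12 channels, so the other grey points say little about antisense RNA.

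Other HSP60 and HSP70 sequences that the study called but left off this list were also measured. Their 15 sense probes were all negative on average, with a median of -0.60 and a range of -1.26 to -0.17. The 15 include MDP0000235765, the second probe of the member gene MD10G1170700, at -1.004. They also include probes of HSP70-15 and, at -0.31 and -0.25, of T-complex protein 1 subunit theta. The median is therefore not one of other HSP60 and HSP70 genes alone. None of the 15 was called here (limma, adjusted p of 0.05 or below), and 14 had an unadjusted p under 0.05, against 7098 of all 133709 probes. The 15 had been selected on these samples, so neither their direction nor the count of 14 is independent evidence. For 1 of them, the mitochondrial HSP70 gene MD05G1049700, the study had called the antisense probe, and its sense probe, above background in 1 low scald and 1 high scald channel, had the smallest ratio of the 15. That antisense probe was above background in all 12 channels and had a mean ratio of -1.51, with -1.46, -1.08 and -1.99 in C1 to C3. All 6 of its array ratios were below 0, and the mean lay below those of 3 members. At the edge of the list, the members with the smallest ratios stood at -1.18 and -1.45. Among the sense probes, the largest outside it were those of a cognate HSP70 (MDP0000255372) at -1.26 and of a mitochondrial HSP70, MD09G1218200, which takes part in protein import, at -1.12. The subunits of the chloroplast chaperonin, which help fold proteins such as Rubisco, ran smaller still: -0.57 and -0.48 for 2 probes of the alpha subunit MD03G1124000 and -0.57 for the beta subunit MD03G1002900. HSP70-15, a larger relative that acts as an exchange factor, had -0.85, -0.68 and -0.60 for 3 probes matched to MD09G1212600.

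The 16 co-chaperones of the list, all negative on average, had a median of -0.92 and a range of -2.87 to -0.31. With limma, 0 were called and 16 had an unadjusted p under 0.05, against 1 and 7098 of all 133709 probes. Of the 16, 7 also stood on the study's list of heat shock transcripts. Among partners of HSP70, BAG5, a regulator that binds HSP70, had -2.87, and the DnaJ proteins MD10G1289200 and MD05G1310300 had -2.59 and -2.53. BAG5 was measured on 5 arrays, and none of its 6 high scald channels was above background. The organizing proteins that pass clients from HSP70 to HSP90 had -1.12 for MD04G1081900 and -1.08 for MD06G1065400. The mitochondrial chaperonin 10, the lid of HSP60, had -1.16 for MD13G1024100 and -0.77 for MD16G1026800, which may be set beside -1.45 and -1.18 for HSP60 itself. Like the other lists, this one was drawn from transcripts that the study had called on these samples. Its direction and its count of 16 are therefore a description only.

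**Figure D5:**
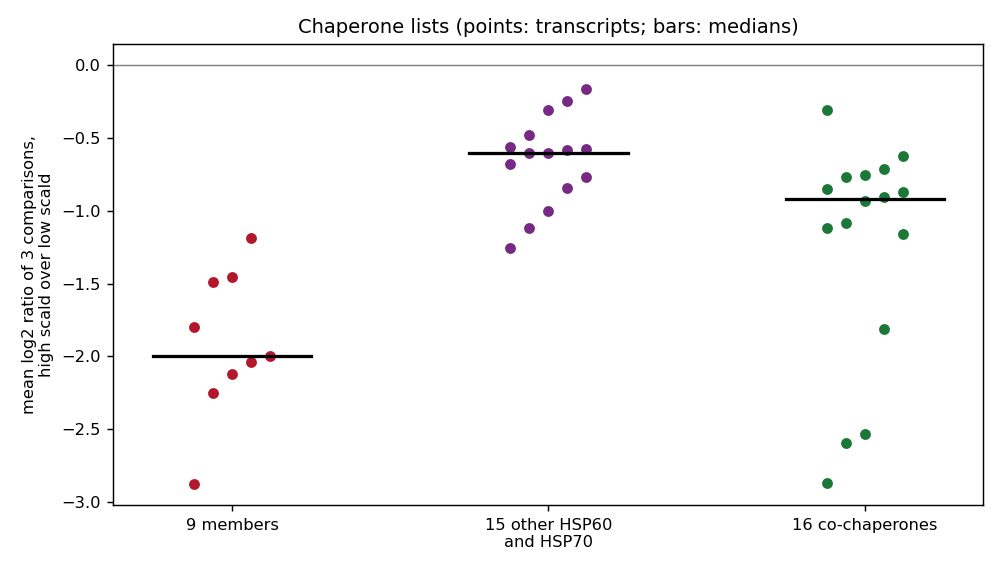
Each point is the mean log2 ratio of 1 transcript over the 3 comparisons (vertical axis), for the 9 members, the sense probes of 15 other HSP60 and HSP70 sequences and 16 co-chaperones, with bars at the medians of -2.0, -0.60 and -0.92. All points lie below 0, and 3 of the 15 other HSP60 and HSP70 probes lie at -1 or less, among them the second probe of the member gene MD10G1170700.

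Across the array, 11.0% to 30.9% of the probes were well above background per channel. Of the members' channels, 53 of 54 in low scald and 42 of 54 in high scald samples were, and none was saturated. LHCB3, a chlorophyll-binding protein of green tissue, was the only tissue marker measured, and it cannot tell peel from other green tissue. Markers of epidermis and cuticle were not analysed here, so peel identity was not tested. LHCB3 was above background in all 12 channels, at 10.91 in 2014-P24, 10.40 in 2014-P36, 10.26 in 2015-P24, 10.21 in 2015-P31 and 9.91 in 2017-P31b. Its ratio was -0.61 ± 0.42 (SD, n = 3, limma adjusted p = 0.909), with C3 the most negative at -1.04 and C2 the least at -0.19. Its part in the members' ratios was not tested.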

How the data were processed

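Total RNA from 5 peel pools was amplified, labelled with Cy3 or Cy5 and hybridised by the authors to AryANE_v2 oligonucleotide arrays. The deposited spot and local background intensities, on a linear scale, came from Agilent Feature Extraction 11.5 without background subtraction. The authors also deposited log2 values after their lowess, used here as an alternative only. Sample names follow the labels, and the study's text calls 2017-P31b by another name and gives other plots in one paragraph.

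Background was corrected with normexp (offset 50) and dyes with loess (span 0.3, 4 iterations, control and outlier spots at weight 0) in limma 3.58.1 under R 4.3.3. Each ratio was expressed as high over low scald, spots and dye-swapped arrays were averaged, and lmFit with eBayes was run on the 3 ratios of 133709 probes with Benjamini-Hochberg adjustment. Levels came from single channels after loess and Aquantile. The number of arrays limits the precision. The calculation was tested on simulated data. Members, lists, rules and alternatives were chosen with earlier results of these data known. The text names all 9 members with every probe, relatives from 2 lists by family, and the 3 nearest probes of each member. No probe or gene sequence is printed, and no member identifier matched the reference table used for names.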

Additional observations from a re-analysis of the deposited data

How the results depend on the processing

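The members stayed negative in all 22 alternatives, and the median of the 9 members ran from -2.47 with plain background subtraction to -1.55 without C3. All 9 met the rule of a negative ratio on all arrays with a mean of -1 or less, except 8 without C3, where MD05G1182500 had -0.92, and 4 with median centring in place of loess, where single arrays of 5 members were positive. With plain background subtraction the dim MD17G1226000 had -4.84 and MD01G1126500 -2.54. The count of members that differed between 2017-P31b and 2015-P24 was 2, but 4 with plain subtraction and 1 with median centring. The difference between these samples in MD15G1150500, 0.16, was -0.36 with median centring, -0.18 with plain subtraction, -0.03 on arrays with high scald in Cy3 and -0.01 without array 1 of C1. The 1 call over all probes became 0 with plain subtraction, median centring, quantile normalisation, outlier spots kept, arrays of either dye orientation alone, the slide as a block and the 5 sample levels, and 0 to 1 with a comparison or array left out. With 6 arrays as separate ratios there were 432 calls, and 457 with the comparison as a random replicate block, both counting dye swaps of the same RNA as replicates. In these, 1 member was called, MD15G1150500, at a limma adjusted p of 0.0399 and 0.0376. The numbers of the samples do not pair them, and the pairing comes from the arrays. No antisense probe of a member was called in any alternative. The cause of these differences was not tested.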
